A study of Mus musculus with 4 samples.

Results

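The genes described here encode the subunits of oxidative phosphorylation, measured by bulk RNA sequencing in alveolar macrophages (AMs) of mice with and without a mammary tumor. A gene was taken if the count table called it protein coding and its symbol began with Nduf followed by a, b, c, s or v, with Uqcr, with Cox and a digit from 4 to 8, with Atp5 or with mt-, or was Sdha, Sdhb, Sdhc or Sdhd. This gave 107 of 54532 genes, of which 94 are nuclear-encoded and 13 lie on the mitochondrial genome. They carry 106 symbols, since Atp5o stands for 2 gene entries, 1 of them at 0 counts in every library. The prefix also takes in 8 complex I assembly factors (Ndufaf1 to Ndufaf8), which are not subunits. They are counted in the totals of the nuclear-encoded genes and described in a paragraph of their own. A few subunits carry other names in this table and were not taken, such as Usmg5 of ATP synthase.

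Both groups were wild-type female mice, on a BALB/c background and 8 to 10 weeks old when obtained. The comparison was between the control AMs from mice that had received no 4T1 cells (2 libraries) and the tumor AMs from mice inoculated with 4T1 cells 2 weeks earlier (2 libraries). 4T1 is a mouse mammary carcinoma line of BALB/c origin that spreads to the lung from the mammary fat pad. The comparison was designed to describe AMs at the stage before metastases are seen, and the labels do not say whether replicates came from separate mice. The p-values therefore measure the spread between these libraries, which may be technical. The paper treats the staining and the RNA sequencing of isolated AMs together, and gives CD45+ CD11b- CD11c+ SiglecF+ cells as the AMs that were stained.

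Oxidative phosphorylation is the final stage of aerobic energy supply. Complexes I and II pass electrons from NADH and succinate to ubiquinone, complex III passes them on through cytochrome c to complex IV, and complex V (ATP synthase) uses the proton gradient built along the way to make ATP. Most subunits are encoded in the nucleus and imported, while a small set is transcribed from the mitochondrial genome as long precursors of both strands that are cut at the tRNAs. AMs live among surfactant lipids and are known to rely on fatty acid oxidation and oxidative phosphorylation.

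The 4 libraries held 16167147 to 19205737 counts, and the log2 CPM (counts scaled to the TMM-adjusted library size) of the 2 libraries of a group correlated at 0.994 (control) and 0.992 (tumor) across tested genes. Of the AM markers, 14 of 14 were called lower in the tumor libraries, with summed levels of 18056 and 18133 CPM in control and 12007 and 12153 CPM in tumor. Markers of most other cell types were higher. Eosinophil markers (5 of 5 called higher) summed to 0.640 and 0.634 CPM in control and 2669 and 2629 CPM in tumor. Neutrophil markers (10 of 10) summed to 48.0 and 48.1 CPM and to 3847 and 3810 CPM, and Elane was at 0 in both controls. Mmp8 alone held 38.1 CPM of the sum in both controls. Basophil and mast cell markers (6 of 6) summed to 0.267 and 0.634 CPM and to 62.9 and 55.0 CPM, with Mcpt8, Ms4a2 and Fcer1a at 0 in both controls. Hepatocyte markers (9 of 10 called higher, 1 lower) summed to 143 and 144 CPM and to 831 and 821 CPM, with Alb, Ahsg, Ttr, Serpina1a and Fgb at 0 in both controls. Trf, the 1 called lower, held 142 and 143 CPM of the control sums and 133 and 124 CPM of the tumor sums. Dendritic cell markers (4 of 7 called higher, and 1, Clec9a, lower) summed to 12.3 and 12.7 CPM and to 43.7 and 42.6 CPM. Those of lung epithelium (0 of 5 tested called higher, 3 lower) summed to 161 and 166 CPM and to 101 and 109 CPM. Scgb1a1 had a mean of 72.7 CPM in control and 22.2 CPM in tumor. Sftpc and Ager had log2 fold changes of 0.46 and 0.39 and were not called. Of 8 markers of monocytes and interstitial macrophages, 2 were called higher and 5 lower, with sums of 109 and 119 CPM and of 103 and 99.99 CPM. The part of these cells in the values below was not tested. In bulk samples, fewer cells of a type and less RNA per cell cannot be told apart.

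Transcripts of the nuclear-encoded genes differed little between the groups. Of the 94 genes, 87 passed the filter on low counts and were tested, and 7 were called higher and 7 lower in tumor AMs at an adjusted p under 0.05 (edgeR quasi-likelihood test, Benjamini-Hochberg over all 14256 genes tested). The remaining 73 were not called. The share called was 16.1%, against 53.8% of all tested genes (29.0% higher and 24.8% lower). Without the 8 assembly factors, 6 were called higher and 6 lower of 79 tested, which is 15.2%, and the median log2 fold change was -0.01. The median log2 fold change (tumor over control) was -0.03 over the 87 genes, and 0.02 over all tested genes. The median size of the change in either direction was 0.10, against 0.32 over all tested genes. For 53 of the 87 genes the 95% interval of the log2 fold change lay within a 1.25-fold change in either direction, which held for 22.4% of all tested genes. The nuclear genes were also measured more precisely than most, with a median SE of 0.079 against 0.115. Of tested genes averaging 100 counts or more, 60.7% were called, and of the 80 nuclear-encoded genes among them 14 were. The Wald test of DESeq2 called 6 of the 14, namely Cox7a2l, Atp5l and Cox8a higher and Sdha, Atp5b and Atp5g3 lower. The CPM of the 2 groups did not overlap for 48 of the 87 genes (21 higher and 27 lower in tumor), against 75.1% of all tested genes.

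This even split rests on the scaling of the libraries. With total counts as library sizes, 17 nuclear-encoded genes were called higher and 4 lower. With libraries scaled on the 14 AM markers, 83 were called higher and 0 lower, each of the 7 genes called lower here was above 0 (from 0.23 for Ndufaf3 to 0.55 for Atp5b), and the median of all tested genes moved by 0.69 on the log2 scale. A change of scaling moves all genes by about the same amount. The median of the nuclear-encoded genes relative to that shift was therefore fixed in advance, again at -0.03. Their summed level was 5503 and 5602 CPM in the control libraries and 5439 and 5455 CPM in the tumor libraries.

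**Figure D1:**
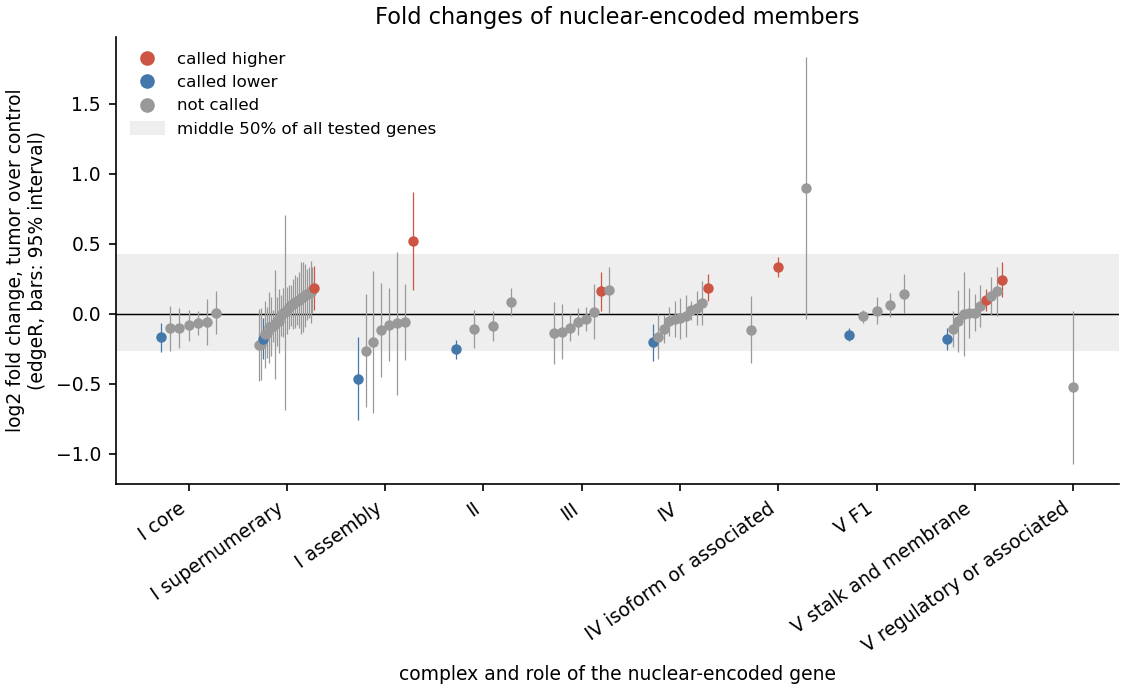
Log2 fold change (tumor over control, TMM scaling) of each tested nuclear-encoded gene, by complex and role, with 95% intervals from edgeR. The grey band holds the middle 50% of all tested genes, and 7 genes called higher and 7 called lower are colored. Scaled on AM markers, 0 genes were called lower.

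In complex I, the 7 nuclear-encoded core subunits, which carry the flavin and the iron-sulfur clusters, had a median log2 fold change of -0.08, and 1 was called. Ndufs1, the largest subunit of the NADH-oxidising arm, had 83.0 and 83.9 CPM in control and 73.3 and 75.2 CPM in tumor AMs. The groups did not overlap, and the log2 fold change was -0.17 ± 0.05 (SE, adjusted p = 0.00603, edgeR), although its call was lost with total counts as library sizes (-0.10, adjusted p = 0.0939, edgeR). None of the others was called. Log2 fold changes were -0.10 for Ndufv2 and Ndufs7, -0.08 for Ndufv1 (the NADH-binding subunit), -0.06 for Ndufs8, and 0.01 for Ndufs3. Ndufv2 was called lower without tumor replicate 1 (-0.19, adjusted p = 0.0252, edgeR). The 95% intervals of all 7 core subunits lay within 1.25-fold.

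The 29 supernumerary subunits of complex I, which surround the core, had a median log2 fold change of 0.02. Ndufb11, a subunit of the membrane arm, was called higher, at 34.1 and 32.9 CPM in control and 37.0 and 39.4 CPM in tumor AMs (log2 fold change 0.19 ± 0.08 SE, adjusted p = 0.0407, edgeR). Ndufa9, at the joint of the matrix and membrane arms, was called lower, at 43.3 and 44.4 CPM in control and 39.8 and 37.7 CPM in tumor AMs (-0.18 ± 0.07 SE, adjusted p = 0.0399, edgeR). Both calls were near the threshold, and each was lost with the replicate number as a block (adjusted p = 0.0536 and 0.0501, edgeR), in the Wald test of DESeq2 (adjusted p = 0.189 and 0.161) and without control replicate 1, control replicate 2 or tumor replicate 2. The call of Ndufa9 was also lost with total counts as library sizes (-0.11, adjusted p = 0.208, edgeR) and with 10 counts in every library (adjusted p = 0.0806, edgeR), and that of Ndufb11 without a low-count filter (adjusted p = 0.102, edgeR). Ndufb11 shares 117 bases with Rbm10 on the opposite strand. The other 27 ranged in log2 fold change from -0.22 (Ndufc1) to 0.17 (Ndufb7), and none of them was called.

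The assembly factors of complex I held the largest called changes among the nuclear-encoded genes, at low levels. Ndufaf7, a methyltransferase, had 5.55 and 5.20 CPM in control and 8.26 and 7.24 CPM in tumor AMs. This was a log2 fold change of 0.52 ± 0.17 (SE, adjusted p = 0.0110, edgeR), and the groups did not overlap. Ndufaf3, which acts early in assembly with Ndufaf4, had 11.1 and 14.4 CPM in control and 9.30 and 9.12 CPM in tumor AMs. Its log2 fold change was -0.46 ± 0.14 (SE, adjusted p = 0.00776, edgeR), and it was 0.23 with libraries scaled on AM markers. Control replicate 2 was well above control replicate 1, and without control replicate 2 the log2 fold change of Ndufaf3 was -0.29 (adjusted p = 0.196, edgeR). The call of Ndufaf7 was lost without control replicate 2 (0.46, adjusted p = 0.0773, edgeR) or without tumor replicate 1 (0.42, adjusted p = 0.0683, edgeR). Ndufaf4 had a log2 fold change of -0.08 and was not called.

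Complex II, succinate dehydrogenase, is encoded by the nucleus alone and is shared with the TCA cycle. Sdha, its flavoprotein, was among the clearest changes in the nuclear set. It had 262 and 260 CPM in control and 225 and 213 CPM in tumor AMs. The groups did not overlap, and the log2 fold change was -0.25 ± 0.03 (SE, adjusted p = 2.09e-07, edgeR), with 0.44 under scaling on AM markers as the exception in direction. The iron-sulfur subunit Sdhb (-0.08) and the membrane anchors Sdhc (-0.11) and Sdhd (0.08) were not called. Sdhc differed between the tumor libraries, at 84.3 and 68.5 CPM, against 81.5 and 82.7 CPM in control. Without tumor replicate 1, its log2 fold change was -0.27 (adjusted p = 3.15e-05, edgeR), and Sdhd was called higher with total counts as library sizes (0.15, adjusted p = 0.0118, edgeR). The summed level of complex II was 501 CPM in both control libraries, and 466 and 442 CPM in the tumor libraries.

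Of the 8 tested genes of complex III, 1 was called. Uqcrh, the acidic hinge protein next to cytochrome c1, had 51.8 and 60.4 CPM in control and 61.0 and 63.9 CPM in tumor AMs (log2 fold change 0.16 ± 0.07 SE, adjusted p = 0.0437, edgeR). The control libraries differed from each other by more than the second control did from the first tumor library, and without control replicate 1 the log2 fold change was 0.04 (adjusted p = 0.746, edgeR), and without tumor replicate 2 it was 0.12 (adjusted p = 0.136, edgeR). Without control replicate 2 it was 0.25, and without a low-count filter the call was lost (adjusted p = 0.0776, edgeR). The core proteins Uqcrc1 (-0.04) and Uqcrc2 (-0.10) and the Rieske protein Uqcrfs1 (-0.05) were not called. Nor were Uqcr11 (-0.14), Uqcrb (-0.13), Uqcr10 (0.02) or Uqcrq (0.17, adjusted p = 0.0707, edgeR). Without control replicate 1, Uqcrc2 was called lower (-0.15, adjusted p = 0.0363, edgeR). Uqcrq was called higher with total counts as library sizes (0.24, adjusted p = 0.0129, edgeR) and among genes with 10 counts in every library (0.20, adjusted p = 0.0365, edgeR). Both genes of cytochrome c and c1 were called lower. Cycs, which is cytochrome c itself and is no member of the set, had 63.0 and 56.3 CPM in control and 46.1 and 41.9 CPM in tumor AMs (log2 fold change -0.44 ± 0.07 SE, adjusted p = 4.00e-06, edgeR). Cyc1, the heme subunit of complex III that carries another prefix, fell by 0.21 on the log2 scale (adjusted p = 0.00448, edgeR). Both were above 0 when libraries were scaled on AM markers (0.25 and 0.49), and the call of Cyc1 was lost without control replicate 2 (adjusted p = 0.110, edgeR).

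Complex IV, cytochrome c oxidase, had 11 nuclear-encoded subunits in the general form of the enzyme, and 2 were called in opposite directions. Cox8a, a small membrane subunit, had 83.1 and 85.7 CPM in control and 98.1 and 94.1 CPM in tumor AMs (log2 fold change 0.19 ± 0.05 SE, adjusted p = 0.00159, edgeR). Cox5a, on the matrix side, had 54.7 and 51.4 CPM in control and 45.6 and 46.6 CPM in tumor AMs (-0.20 ± 0.07 SE, adjusted p = 0.0101, edgeR). The groups did not overlap for either gene. Without control replicate 1 both calls were lost (adjusted p = 0.0508 for Cox8a and 0.138 for Cox5a, edgeR), and that of Cox5a also with total counts as library sizes (-0.14, adjusted p = 0.0807, edgeR). Cox4i1, the largest nuclear-encoded subunit of the enzyme, was at 237 and 252 CPM in control and 245 and 252 CPM in tumor AMs, and the groups overlapped, although it was called higher with total counts (0.09, adjusted p = 0.0236, edgeR). The log2 fold changes of the rest were -0.16 for Cox7b, -0.11 for Cox6a1, -0.05 for Cox6b1, -0.04 for Ndufa4 (named after complex I but counted here with complex IV), -0.03 for Cox5b, -0.02 for Cox7c, 0.04 for Cox6c and 0.08 for Cox7a2, and none was called. Cox7b was called lower without tumor replicate 1 (-0.27, adjusted p = 0.00548, edgeR). Cox6a1 was near the threshold (adjusted p = 0.0586, edgeR) and without control replicate 1 was called lower (-0.20, adjusted p = 0.00235, edgeR), and likewise without tumor replicate 2 (-0.15, adjusted p = 0.0107, edgeR). It was also called lower with the replicate number as a block (-0.11, adjusted p = 0.0334, edgeR), with DESeq2 size factors (adjusted p = 0.0457, edgeR), without a low-count filter (adjusted p = 0.0290, edgeR) and among protein-coding genes alone (adjusted p = 0.0407, edgeR).

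Most isoforms of complex IV known from other tissues were nearly absent. Of 9 isoform or associated genes, 3 passed the filter. Cox7b2 and Cox8c, known from testis, had 0 counts in all 4 libraries, which allows up to 0.153 to 0.190 CPM per library at a floor of 3 counts. Cox8b, a muscle isoform, had 2 counts in 1 tumor library and 0 in the others. Cox4i2, the lung and hypoxia isoform of subunit 4, had 3 to 6 counts, the muscle isoform Cox6a2 had 2 to 8, and Ndufa4l2, the hypoxia-linked paralog of Ndufa4, had 1 count in 1 control library. Skeletal and heart muscle markers summed to between 0.507 and 1.38 CPM in every library. The muscle isoform Cox7a1 had 0.907 and 0.444 CPM in control and 0.982 and 1.58 CPM in tumor AMs, from 7 to 31 counts, and was not called (log2 fold change 0.90 ± 0.46 SE, adjusted p = 0.0996, edgeR), although without tumor replicate 1 it was called higher (1.18, adjusted p = 0.0465, edgeR). Cox6b2, known from testis, was at 14.7 and 14.3 CPM in control and 13.7 and 13.1 CPM in tumor AMs and was not called either.

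Cox7a2l, which links complexes III and IV into supercomplexes, was the most significant nuclear-encoded change. It had 158 and 154 CPM in control and 196 and 198 CPM in tumor AMs. The groups were well apart, and the log2 fold change was 0.33 ± 0.04 (SE, adjusted p = 5.08e-09, edgeR). Its call and direction were kept under every alternative that was run for it other than a limit of 1 on the log2 scale.

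In complex V, the catalytic head (F1) is built from 5 gene products. Atp5b, the catalytic beta subunit, had 748 and 760 CPM in control and 683 and 677 CPM in tumor AMs, which was a small but well measured difference (log2 fold change -0.15 ± 0.02 SE, adjusted p = 1.71e-06, edgeR). Atp5a1, its partner in the head, had 613 and 617 CPM in control and 603 and 612 CPM in tumor AMs and was not called (-0.02, 95% interval -0.07 to 0.03). The central stalk subunits Atp5c1 (0.06), Atp5d (0.02) and Atp5e (0.15, adjusted p = 0.0732, edgeR) were not called. With total counts as library sizes, Atp5c1 (0.13, adjusted p = 0.0107, edgeR) and Atp5e (0.21, adjusted p = 0.00974, edgeR) were called higher. So was Atp5c1 without tumor replicate 1 (0.11, adjusted p = 0.0420, edgeR), and so was Atp5e without tumor replicate 2 (0.21, adjusted p = 0.0142, edgeR) and among genes with 10 counts in every library (adjusted p = 0.0327, edgeR). With total counts as library sizes Atp5b was at -0.083 and still called lower. With libraries scaled on AM markers, Atp5b was at 0.55 and Atp5a1 at 0.68.

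In the peripheral stalk and the membrane part of complex V, 11 of 12 gene entries were tested, 2 were called higher and 1 lower. Atp5l, subunit g, had 51.5 and 51.6 CPM in control and 60.8 and 61.3 CPM in tumor AMs (log2 fold change 0.24 ± 0.06 SE, adjusted p = 0.00116, edgeR). Atp5f1, subunit b of the peripheral stalk, had 156 and 148 CPM in control and 167 and 160 CPM in tumor AMs (0.10 ± 0.04 SE, adjusted p = 0.0315, edgeR). Its groups lay close together, and the call was lost without control replicate 2 (0.04, adjusted p = 0.491, edgeR) and without tumor replicate 1 (0.06, adjusted p = 0.291, edgeR), and without a low-count filter (adjusted p = 0.124, edgeR). With total counts as library sizes its log2 fold change was 0.17. The gene shares 731 bases with Wdr77 on the opposite strand. A group of 3 genes encodes the same subunit c of the proton-driven ring. Atp5g3, the most abundant of them here by length-scaled level (66.8 FPKM in control), was called lower, at 145 and 146 CPM in control and 127 and 131 CPM in tumor AMs (-0.18 ± 0.04 SE, adjusted p = 0.000345, edgeR). It was at -0.11 and still called lower with total counts as library sizes. Atp5g1 (-0.05) and Atp5g2 (0.13) were not called. Atp5s, a factor associated with the enzyme, had the lowest fitted value of the nuclear set (-0.52 ± 0.27 SE, from 33 to 58 counts) and was not called (adjusted p = 0.101, edgeR).

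**Figure D2:**
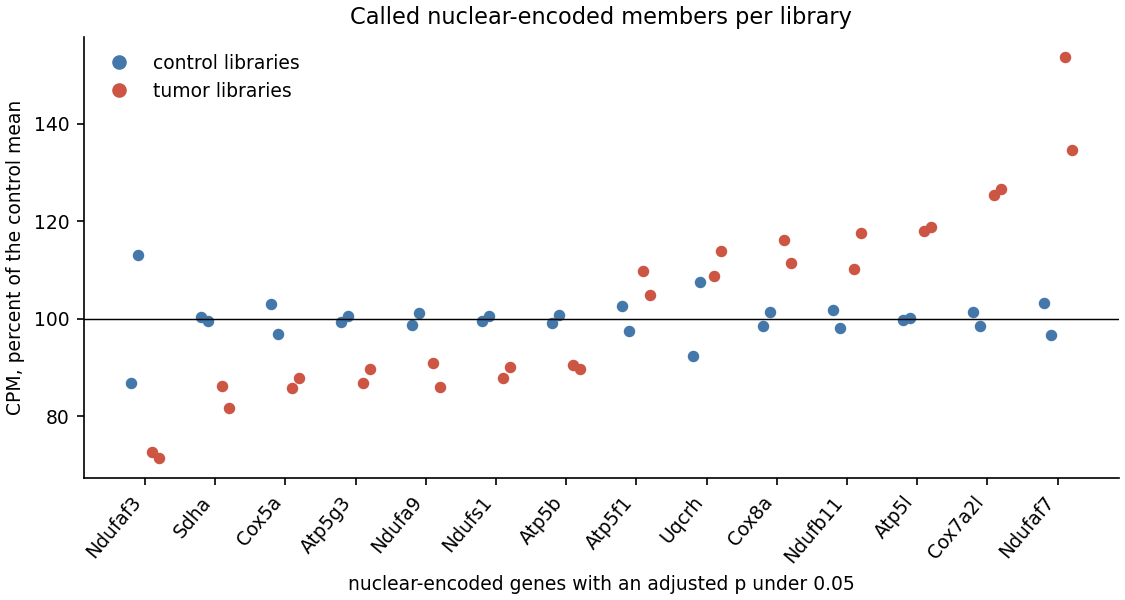
CPM of the 14 called nuclear-encoded genes in each library, as a percent of the control mean of the gene (TMM scaling). Blue points are the 2 control and red points the 2 tumor libraries. The groups do not overlap for any of the 14, and the 2 controls differ most for Ndufaf3 and Uqcrh. With libraries scaled on AM markers, the 7 genes shown as lower were above 0, and all but Ndufaf3 (0.23, adjusted p = 0.139, edgeR) were called higher.

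Of the 14 called nuclear-encoded genes, 11 changed by less than 1.25-fold, and no gene of the set changed by more than 1 on the log2 scale, which 17.0% of all tested genes did. Per length, Atp5a1 (196 FPKM, here the TMM-scaled CPM per kilobase of the deposited gene length), Atp5b (178 FPKM), Cox6a1 (174 FPKM), Cox4i1 (158 FPKM) and Cox8a (155 FPKM) had the highest control levels. The median level of the tested nuclear-encoded genes was 22.8 FPKM in control and 22.2 FPKM in tumor AMs.

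Promoter sequences are shown for the called nuclear-encoded genes with the largest rise and fall, as upstream context for genes whose levels moved in opposite directions. The sequences are the 250 bases before the RefSeq start in GRCm38.p6, 5′ to 3′ on the strand of the gene. Cox6a1, chosen after its values were seen, is added because it holds motif matches, of which the ETS core is in capitals. Ndufaf7 lies upstream at chr17:78936885-78937134 on the plus strand, Ndufaf3 at chr9:108567437-108567686 on the minus strand and Cox6a1 at chr5:115348959-115349208 on the minus strand.
Ndufaf7: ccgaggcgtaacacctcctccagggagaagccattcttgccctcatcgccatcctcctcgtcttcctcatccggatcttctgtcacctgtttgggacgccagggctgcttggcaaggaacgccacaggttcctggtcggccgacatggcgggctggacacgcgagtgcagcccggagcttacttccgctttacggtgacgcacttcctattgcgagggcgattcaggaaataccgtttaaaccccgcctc
Ndufaf3: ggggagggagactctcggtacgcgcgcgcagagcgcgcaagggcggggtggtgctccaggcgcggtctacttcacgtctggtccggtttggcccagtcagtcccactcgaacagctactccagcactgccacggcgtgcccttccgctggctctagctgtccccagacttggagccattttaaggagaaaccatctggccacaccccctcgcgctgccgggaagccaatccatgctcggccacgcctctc
Cox6a1: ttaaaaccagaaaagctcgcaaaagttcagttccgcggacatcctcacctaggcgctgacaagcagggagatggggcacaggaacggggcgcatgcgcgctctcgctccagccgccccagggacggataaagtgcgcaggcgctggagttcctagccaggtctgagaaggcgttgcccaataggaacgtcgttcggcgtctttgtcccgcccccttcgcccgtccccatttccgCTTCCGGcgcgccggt

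The 3 motifs searched belong to factors known to act on respiratory chain genes, and both strands of the RefSeq promoter windows, from 250 bases before the gene start to shortly after it, were searched for them. A window was found for 75 of the 94 nuclear-encoded genes. Genes were counted once, as holding a motif if any of their windows did. The NRF1 core, a palindrome, was in 7 of the 75 genes, which is 9.33%. It was in 1.07% of all 27025 genes with a window and 2.31% of the 10124 tested genes with a window. The ETS core bound by GABP (CCGGAAG, or CTTCCGG on the other strand) was in 18 genes, 24.0%, against 9.93% of all genes and 19.9% of tested genes. The YY1 core (AAGATGGCG, or CGCCATCTT) was in 8 genes, 10.7%, against 1.64% and 3.57%. None of the 3 motifs contains another. In Cox6a1 the NRF1 core began 162 bases and the ETS core 16 bases before the start. The upstream parts of Atp5g2, Ndufa11, Ndufaf4 and Atp5k also held the NRF1 core, and 0 of the 7 genes with this match were called, where 16.1% of the tested nuclear-encoded genes were, although Cox6a1 was called under the alternatives given above. Among the genes with a window, the ETS core was in 3 of 6 called higher, 0 of 6 called lower and 15 of 60 not called, and the YY1 core in 0 of 6, 1 of 6 and 7 of 60. A match is a description of the letters and not evidence of binding, and the upstream sequences of Ndufaf7 and Ndufaf3 shown above held none of the 3 motifs.

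The 13 protein genes of the mitochondrial genome were called more often than the nuclear set. Of these, 12 were tested, and 5 were called higher and 5 lower, which is 83.3% against the 53.8% of all tested genes. Among all tested genes averaging 100 counts or more, 60.7% were called. Mitochondrial genes reached 160983 counts in a library, where small changes can be called, and 5 of the 10 called changed by less than 1.25-fold. mt-Atp8, a subunit of ATP synthase, had 0 to 3 counts per library and was not tested. The DESeq2 Wald test called 2 higher (mt-Co1 and mt-Co2) and the same 5 lower, and mt-Co3 (adjusted p = 0.390), mt-Nd3 (adjusted p = 0.134) and mt-Atp6 (adjusted p = 0.0727) lost their calls in it. The sum of the 13 genes differed little under TMM scaling. It was 16101 and 16020 CPM in control and 16488 and 16314 CPM in tumor AMs, and its share of all counts was 1.57% and 1.56% in control and 1.68% and 1.67% in tumor AMs. The log2 ratio of the sums was 0.03, against 0.73 with scaling on AM markers. Leaving out the 20 highest genes takes mt-Co1 and mt-Cytb out of the sum, and the ratio of the remaining genes was -0.30. Under TMM scaling, most genes of complex I were lower in tumor AMs and those of complex IV higher. The 7 complex I genes summed to 6261 and 6165 CPM in control and to 5072 and 4979 CPM in tumor AMs, while the 3 complex IV genes summed to 6765 and 6812 CPM and to 8293 and 8274 CPM. Under scaling on AM markers 11 were called higher and 0 lower, and mt-Nd4l was not called.

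**Figure D3:**
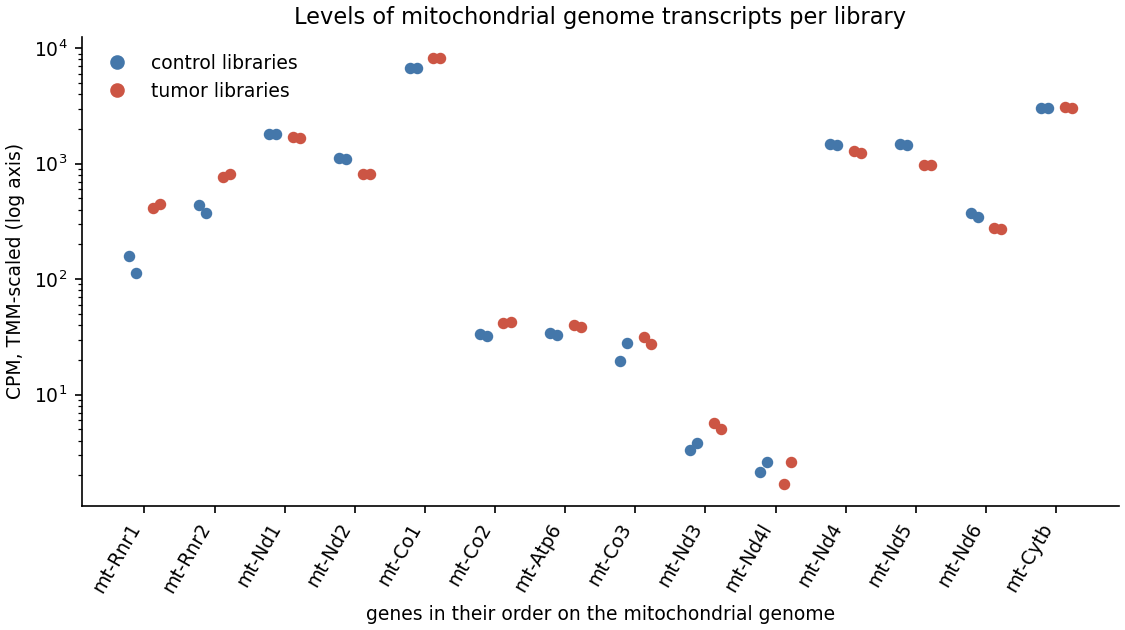
CPM (log axis, TMM scaling) of the transcripts of the mitochondrial genome in each of the 2 control and 2 tumor libraries, in genome order, with the 2 rRNAs (mt-Rnr1 and mt-Rnr2) for comparison. mt-Co1 is the most abundant, from 6711 to 8220 CPM. From mt-Co2 to mt-Nd4l the genes lie far below their neighbours, at most 42.6 CPM.

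In complex I, mt-Nd5, a proton-pumping subunit of the membrane arm (positions 11742 to 13565 of the mitochondrial genome, plus strand), had the largest fall. It had 1480 and 1448 CPM in control and 979 and 976 CPM in tumor AMs. The groups were far apart, and the log2 fold change was -0.58 ± 0.02 (SE, adjusted p = 5.19e-20, edgeR). mt-Nd2, another pump subunit, had 1121 and 1101 CPM in control and 815 and 813 CPM in tumor AMs (-0.45 ± 0.02 SE, adjusted p = 6.13e-17, edgeR). mt-Nd6 is the one protein gene on the opposite strand and shares 14 bases with mt-Nd5, and its counts cannot be assigned to a strand here. It had 374 and 348 CPM in control and 278 and 270 CPM in tumor AMs (-0.40 ± 0.03 SE, adjusted p = 2.14e-11, edgeR). mt-Nd4 followed, with 1468 and 1464 CPM in control and 1289 and 1239 CPM in tumor AMs (-0.21 ± 0.02 SE, adjusted p = 4.65e-10, edgeR). mt-Nd1, at the quinone site, had 1812 and 1797 CPM in control and 1703 and 1673 CPM in tumor AMs (-0.10 ± 0.02 SE, adjusted p = 4.56e-05, edgeR), and its call was lost with total counts as library sizes (-0.03, adjusted p = 0.175, edgeR). The other four kept their calls with total counts, and all 5 values were above 0 when libraries were scaled on AM markers, from 0.11 for mt-Nd5 to 0.60 for mt-Nd1.

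In complex IV, mt-Co1, the catalytic subunit with the heme and copper centers (positions 5328 to 6872, plus strand), was higher. It had 6711 and 6752 CPM in control and 8220 and 8204 CPM in tumor AMs, with groups far apart (log2 fold change 0.29 ± 0.01 SE, adjusted p = 3.12e-17, edgeR). mt-Co1 alone made up 41.7% and 42.1% of the counts of the 13 genes in control and 49.9% and 50.3% in tumor AMs. mt-Co2, which takes electrons from cytochrome c, had 33.8 and 32.3 CPM in control and 41.9 and 42.6 CPM in tumor AMs (0.35 ± 0.07 SE, adjusted p = 0.000213, edgeR). mt-Co3 had 19.6 and 27.9 CPM in control and 31.5 and 27.3 CPM in tumor AMs. Its groups overlapped, and the call (0.31 ± 0.11 SE, adjusted p = 0.0215, edgeR) was lost without control replicate 1 (0.06, adjusted p = 0.709, edgeR) and without tumor replicate 1 (0.20, adjusted p = 0.0974, edgeR). Without control replicate 2 its log2 fold change was 0.56.

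Complexes III and V have few mitochondrial genes. mt-Cytb, the only mitochondrial gene of complex III, had 3041 and 3011 CPM in control and 3082 and 3022 CPM in tumor AMs. The groups overlapped, and its log2 fold change was 0.01 with a 95% interval of -0.02 to 0.05, while scaling on total counts gave a call of higher (0.08). mt-Atp6, the proton channel of ATP synthase, had 34.0 and 32.6 CPM in control and 40.2 and 38.6 CPM in tumor AMs (0.24 ± 0.08 SE, adjusted p = 0.00898, edgeR), and its call was lost without control replicate 2 (0.19, adjusted p = 0.124, edgeR). mt-Nd3, a small complex I subunit and the exception to the falls in that complex, had 62 and 60 counts in control and 98 in each tumor library (0.59 ± 0.20 SE, adjusted p = 0.0172, edgeR). Its call was lost without control replicate 1 (0.47, adjusted p = 0.154, edgeR) and without tumor replicate 1 (0.49, adjusted p = 0.0781, edgeR). mt-Nd4l, also of complex I, had 2.13 and 2.60 CPM in control and 1.67 and 2.60 CPM in tumor AMs and was not called.

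Ratios of 2 mitochondrial genes within a library do not depend on the scaling. There were 4.53 and 4.66 counts of mt-Co1 per count of mt-Nd5 in control and 8.39 and 8.40 in tumor AMs. Per count of mt-Nd2 the values were 5.99 and 6.13 in control and 10.1 in both tumor libraries. Counts of mt-Cytb per count of mt-Nd5 were 2.05 and 2.08 in control and 3.15 and 3.09 in tumor AMs. The pairs were chosen with the changes of these genes known, so the separation of the groups is a description. The exact permutation test gives p = 0.333 (two-sided), which is the smallest it allows with 2 libraries against 2. The ratios show unequal change and do not say which gene of a pair moved.

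**Figure D4:**
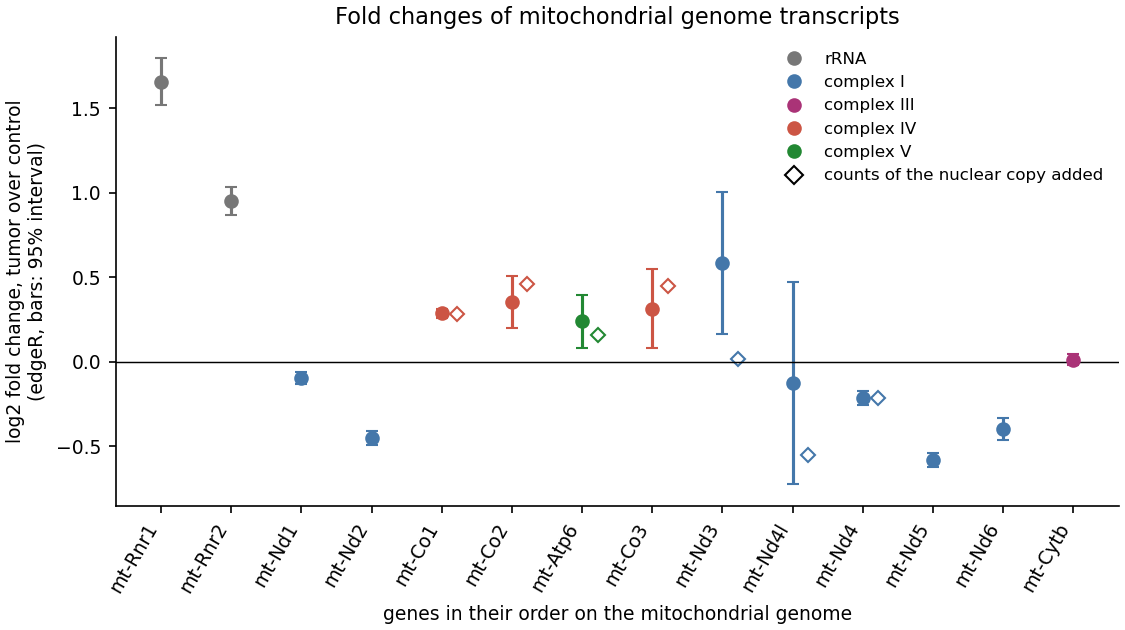
Log2 fold change (tumor over control, TMM scaling) with 95% intervals from edgeR, in genome order and colored by complex. Open diamonds give the value after the counts of a near-identical nuclear copy were added. mt-Nd3 moves from 0.59 to 0.02 and mt-Nd4l from -0.13 to -0.55, and the falls of mt-Nd1, mt-Nd2, mt-Nd4, mt-Nd5 and mt-Nd6 were above 0 under scaling on AM markers.

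How well these counts belong to the mitochondrial genome differs between the genes, since pieces of it have been copied into the nucleus. A read that matches both places can be given to either or to none, and the rule that was applied is not stated. Against the annotated transcripts (GENCODE M21, GRCm38), 5 genes had a copy of at least 99% identity over nearly the whole gene, all on chromosome 1. mt-Co2 (Gm28661), mt-Atp6 (Gm10925), mt-Co3 (Gm28437) and mt-Nd4l (Gm10222) were identical to their copies over the aligned bases, and mt-Nd3 differed from Gm28438 by 1 base in 345. For mt-Nd4, 876 of 1378 bases matched Gm28439, and for mt-Co1, 483 of 1545 bases matched Gm29216 at 99.8% identity. The best nuclear match of mt-Nd5 was Gm11407 on chromosome 4 at 92.4% identity, mt-Nd2, mt-Nd6 and mt-Cytb had best matches of 96.7%, 93.6% and 92.9%, and no match was found for mt-Nd1. The first 60 bases of mt-Nd3 (MT:9459-9518, plus strand) and a stretch of 60 bases of mt-Nd5 (MT:12980-13039, plus strand) are shown with their copies, because they show a copy whose reads can hardly be told apart from the gene's and one whose reads can. Capitals mark the bases that differ within each pair.
mt-Nd3: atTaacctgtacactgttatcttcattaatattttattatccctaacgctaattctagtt
Gm28438: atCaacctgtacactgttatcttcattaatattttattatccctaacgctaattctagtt
mt-Nd5: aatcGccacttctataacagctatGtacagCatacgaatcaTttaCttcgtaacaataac
Gm11407: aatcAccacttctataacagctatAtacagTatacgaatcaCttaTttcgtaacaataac
Counted from the first base of the mitochondrial gene, the difference in mt-Nd3 is T3C, and those in the stretch of mt-Nd5 are G1243A, G1263A, C1269T, T1280C and C1284T.

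The 5 genes with a nearly whole copy were also those with low levels among the genes tested. Their control levels ran from 7.97 FPKM (mt-Nd4l) to 48.9 FPKM (mt-Atp6), against 696 FPKM (mt-Nd6) to 4357 FPKM (mt-Co1) for the 7 other tested genes. The copies themselves had counts of the same order. Gm28661 had 404 and 295 counts in control and 593 and 555 in tumor AMs, beside 634, 509, 726 and 835 counts of mt-Co2. Gm28438 had 180 and 153 counts in control and 146 and 151 in tumor AMs, beside 62, 60, 98 and 98 counts of mt-Nd3. The copies Gm11407, Gm11408 and Gm11410 of mt-Nd5, mt-Nd6 and mt-Cytb had 0 counts in every library.

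With the counts of the near-identical copies added to 7 genes, an alternative chosen after seeing the data, 4 mitochondrial genes were called higher and 6 lower. mt-Nd3 lost its call (log2 fold change 0.02 ± 0.12 SE, adjusted p = 0.911, edgeR) and mt-Nd4l was called lower (-0.55 ± 0.19 SE, adjusted p = 0.0166, edgeR). All 7 complex I genes were then either called lower or, for mt-Nd3, not called. The complex IV genes mt-Co1 (0.28), mt-Co2 (0.46) and mt-Co3 (0.45) and the complex V gene mt-Atp6 (0.16) were still called higher. For mt-Nd5, mt-Nd2 and mt-Nd6, which had the largest falls in the main analysis, no near-identical copy was found among the annotated transcripts. Their values were the same to 2 decimals.

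The mitochondrial rRNAs, which are transcribed from the same precursor but are no protein genes, rose more than any called member. mt-Rnr1 had 158 and 114 CPM in control and 417 and 447 CPM in tumor AMs (log2 fold change 1.66 ± 0.07 SE, adjusted p = 4.15e-18, edgeR), and mt-Rnr2 had 440.5 and 377.5 CPM in control and 764 and 821 CPM in tumor AMs (0.95 ± 0.04 SE, adjusted p = 1.25e-17, edgeR). How rRNA was removed from these libraries is not stated, so their level is no measure of rRNA in the cells.

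Genes that act on the same system were taken from lists chosen by function. Over all 7 lists, 191 of 196 genes were tested, and 29 were called higher and 43 lower, which is 37.7% against 53.8% of all tested genes. Of the lists other than cytochrome c and c1, where both genes fell, the regulators of mitochondrial biogenesis had the largest share called (5 higher and 2 lower of 9 tested). Ppargc1b, a coactivator of respiratory genes, had 8.43 and 8.17 CPM in control and 11.03 and 13.6 CPM in tumor AMs (log2 fold change 0.57 ± 0.14 SE, adjusted p = 0.00133, edgeR). The transcription factors Gabpb1 (0.36), Nrf1 (0.24), Gabpa (0.17) and Yy1 (0.12) were called higher. Pprc1, a relative of the same coactivator family, went the other way, from 89.4 and 83.0 CPM to 44.6 and 42.4 CPM (-0.99 ± 0.06 SE, adjusted p = 3.24e-14, edgeR), and kept its direction under scaling on AM markers. Gabpb2 was called lower (-0.11, adjusted p = 0.0494, edgeR) and was at 0.58 under that scaling, and its call was lost in 7 further alternatives, among them total counts as library sizes (-0.047, adjusted p = 0.436, edgeR), the Wald test (adjusted p = 0.185), limma-voom (adjusted p = 0.0612) and the fits without control replicate 2 (adjusted p = 0.244, edgeR) or tumor replicate 1 (adjusted p = 0.105, edgeR). Esrra (-0.08) and Esrrg (0.04) were not called, and Ppargc1a had counts in 1 library alone and was not tested. In the DESeq2 Wald test the calls of Nrf1 (adjusted p = 0.103), Gabpa (adjusted p = 0.112) and Yy1 (adjusted p = 0.133) were lost, and so were those of all 3 without control replicate 1 or control replicate 2, of Gabpa and Yy1 without tumor replicate 1 or a low-count filter, and of Nrf1 without tumor replicate 2. Yy1 was at 0.075 without control replicate 2, and at 0.18 with total counts as library sizes.

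Of the other assembly factors of the respiratory complexes, 7 were called higher and 3 lower of 38 tested, which is 26.3%. Cox17, a copper chaperone of complex IV, had 1.87 and 2.28 CPM in control and 9.59 and 7.39 CPM in tumor AMs (log2 fold change 2.03 ± 0.22 SE, adjusted p = 5.02e-09, edgeR). Lyrm7, which serves the Rieske protein, was called higher from few counts (1.48 ± 0.60 SE, adjusted p = 0.0393, edgeR), and its call was lost when any library other than tumor replicate 2 was left out (0.93 without tumor replicate 1, adjusted p = 0.403, edgeR), in the Wald test (adjusted p = 0.195), in limma-voom (adjusted p just above the threshold), with the replicate number as a block (adjusted p = 0.0529, edgeR) and without a low-count filter (adjusted p = 0.0588, edgeR). Coa7 (-0.99) and Foxred1 (-0.37), factors of complexes IV and I, were called lower, but Coa7 was at -0.29 and not called and Foxred1 was at 0.32 under scaling on AM markers. Without tumor replicate 2, Foxred1 was at -0.24 and still called lower.

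Among 27 genes that copy, transcribe or process mitochondrial DNA and RNA, 5 were called higher and 8 lower, which is 48.1% and near the 53.8% of all tested genes. The enzymes of replication and transcription Twnk, the helicase (0.95), and Polrmt, the RNA polymerase (0.47), were called higher, while the RNA-processing genes Fastkd5 (-1.17) and Trmt10c (-0.63), a subunit of mitochondrial RNase P, were called lower. Fastkd5 had 4.91 and 5.13 CPM in control and 2.08 and 2.34 CPM in tumor AMs, and Trmt10c had 21.4 and 20.7 CPM and 13.2 and 13.9 CPM. Under scaling on AM markers Fastkd5 remained below 0 (-0.48, adjusted p = 0.0539, edgeR) and Trmt10c was at 0.062.

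In the mitochondrial ribosome, 5 of 77 tested protein genes were called higher and 13 lower (23.4%), with Mrpl33 (0.49) and Mrpl44 (0.48) the largest rises and Mrps6 (-0.59) and Mrps18b (-0.57) the largest falls, of which the falls were at 0.11 and 0.13 under scaling on AM markers. Mrpl44 was not called without control replicate 1 (0.31, adjusted p = 0.224, edgeR), without tumor replicate 2 (0.28, adjusted p = 0.217, edgeR) or in the Wald test (adjusted p = 0.121). Of 18 genes of pyruvate dehydrogenase and the TCA cycle, 61.1% were called, near the share of all tested genes. Of these, 5 were called higher, led by Mdh2 (0.58) and Dlst (0.27), and 6 lower, led by Suclg2 (-0.39) and Pdhx (-0.37), which were at 0.30 and 0.33 under that scaling. The call of Pdhx was lost without control replicate 2 (adjusted p = 0.0561, edgeR) and in the Wald test (adjusted p = 0.0783). Of 20 carriers and membrane proteins, 55.0% were called, also near that share. Of these, 2 were called higher, Slc25a3 (0.18), the phosphate carrier that supplies ATP synthase, and Hspd1 (0.09), and 9 lower, led by Sod2 (-0.86), the superoxide dismutase of the matrix, and Timm23 (-0.76), a channel of protein import, which was at -0.06 and not called under that scaling. The call of Hspd1 was lost without each of the 4 libraries in turn (adjusted p from 0.0666 to 0.373, edgeR, the latter at 0.054 without control replicate 2), without a low-count filter (adjusted p = 0.149, edgeR) and in the Wald test (adjusted p = 0.162), and its value was 0.16 when total counts set the library sizes.

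**Figure D5:**
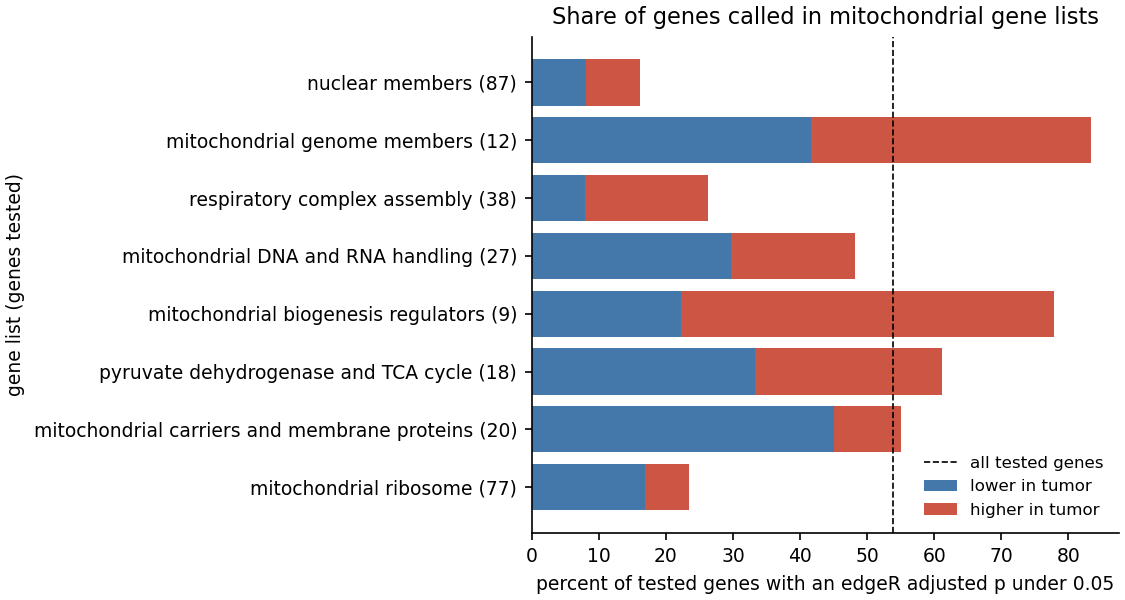
Percent of tested genes called higher (red) or lower (blue) in tumor AMs in the nuclear-encoded set, the mitochondrial genome set and the 6 larger lists (edgeR, adjusted p under 0.05, TMM scaling). The dashed line is the 53.8% of all tested genes, with 16.1% for the nuclear set and 83.3% for the mitochondrial set. Scaled on AM markers, 0 genes of either set were called lower.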

How the data were processed

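Total RNA of purified AMs was extracted with TRIzol and made into libraries with a NEBNext Ultra kit, per the labels. The authors aligned paired-end reads with HISAT2 2.0.5 and counted reads per gene with featureCounts, and deposited whole-number counts that were not normalized. The genome build, annotation, strandedness and rule for reads with several matches are not given in the sources used here. The submitters' processing notes also name DESeq2. FPKM columns of the authors were not used.

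Libraries were grouped from their titles. Genes kept by filterByExpr (minimum count 10) were fitted in R 4.3.3 with edgeR 4.0.16 (TMM scaling, quasi-likelihood test, Benjamini-Hochberg over 14256 genes, threshold 0.05, group as the only term), and the fit was tested on simulated data. TMM factors ranged from 0.977 to 1.02 and 2 residual degrees of freedom remained, so the spread was shared across genes. DESeq2 1.42.0 and limma-voom (limma 3.58.1) were alternatives. Levels between genes are CPM per kilobase. Nuclear copies were searched with blastn 2.17.0 in GENCODE M21 transcripts, and promoters came from RefSeq.

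The members and lists were chosen with earlier results of these data known. All mitochondrial genes, all subunits of complexes II to IV, F1 and the complex I core, and all tissue isoforms of complex IV, all biogenesis regulators, Cyc1 and Cycs, and in each other list the 2 largest called changes in each direction were to be named, except that some results are not reported here. Deviations of same-numbered libraries from their group means correlated at -0.003, so the replicate numbers were not taken as pairs.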

Additional observations from a re-analysis of the deposited data

How the results depend on the processing

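Of 88 named genes with a fold change, the call and direction were the same for 87 with DESeq2 size factors and 86 with limma-voom, and for 69 in the DESeq2 Wald test. Total counts as library sizes gave 17 nuclear-encoded genes called higher and 4 lower, medians of 0.035 (nuclear) and 0.025 (mitochondrial), and log2 ratios of the summed levels of 0.039 and 0.096. Scaling on AM markers gave 83 and 0 nuclear-encoded and 11 and 0 mitochondrial genes called higher and lower, 176 genes called in the other lists, medians of 0.66 and 0.65 and summed-level ratios of 0.67 and 0.73. Of all calls, 53.9% were higher in the main analysis and 96.7% under that scaling. It also turned 41 named genes with a call in either fit to positive log2 fold changes, namely mt-Nd1 0.60, mt-Nd2 0.25, mt-Nd4 0.48, mt-Nd5 0.11, mt-Nd6 0.30, Ndufs1 0.53, Ndufs7 0.59, Ndufs8 0.64, Ndufv1 0.61, Ndufv2 0.60, Ndufa9 0.52, Ndufaf3 0.23, Sdha 0.44, Sdhb 0.61, Sdhc 0.59, Uqcr11 0.56, Uqcrb 0.57, Uqcrc1 0.66, Uqcrc2 0.60, Uqcrfs1 0.64, Cox5a 0.49, Cox5b 0.66, Cox6a1 0.59, Cox6b1 0.64, Cox6b2 0.58, Cox7b 0.53, Cox7c 0.68, Ndufa4 0.66, Atp5a1 0.68, Atp5b 0.55, Atp5g3 0.52, Cyc1 0.49, Cycs 0.25, Esrra 0.62, Gabpb2 0.58, Foxred1 0.32, Trmt10c 0.062, Pdhx 0.33, Suclg2 0.30, Mrps6 0.11 and Mrps18b 0.13. Atp5s (0.17) and mt-Nd4l (0.57) also went above 0 but were called in neither fit. A change of scaling moves all genes by about the same amount, here 0.69 at the median of all tested genes. Smaller falls therefore become positive by construction. The AM markers used for it were 14 of 14 called lower in tumor AMs, and the cause of that was not tested.

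Without a low-count filter 4 nuclear-encoded genes were called higher and the mitochondrial median was -0.0045 with mt-Atp8 included. With 10 counts in every library 11 nuclear-encoded genes were called higher. The Wald test called 3 higher and 3 lower in the nuclear set, 2 mitochondrial genes higher and 45 genes of the other lists. An adjusted p under 0.01 left 3 nuclear-encoded and 3 mitochondrial genes higher, and a log2 fold change of at least 1 left 0 of each set in either direction and 3 in the other lists. Without the 20 highest genes, mt-Co1 and mt-Cytb among them, the mitochondrial median was -0.11 and the summed-level ratio -0.30, and with the trend on gene length removed that median was -0.084.

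Leaving out 1 library gave 4 to 8 nuclear-encoded genes called higher (4 without control replicate 1) and 6 to 10 lower, 3 to 5 mitochondrial genes higher (3 without control replicate 1 or tumor replicate 1) and 5 lower each time, 53 to 69 genes in the other lists, medians of -0.055 to -0.014 (nuclear) and -0.045 to 0.064 (mitochondrial, the latter without tumor replicate 1) and summed-level ratios of -0.040 to -0.015 and 0.023 to 0.038. The lone library of a group was assumed to vary like the others. With the replicate number as a block, 6 nuclear-encoded genes were called higher and 7 lower, and 5 and 5 mitochondrial genes. The labels number the libraries but state no pairing.

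With 2 libraries a group and 16167147 to 19205737 counts, small changes of genes with few counts could not be detected.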
